A study of Mus musculus with 12 samples.

Results

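The D cyclins, the kinases CDK4 and CDK6, the inhibitors that act on them and RB1 form the switch through which a cell enters a division cycle. Of this switch, 10 genes were followed, taken by symbol from the 21859 genes of the expression table: *Ccnd1*, *Ccnd2*, *Ccnd3*, *Cdk4*, *Cdk6*, *Cdkn2a*, *Cdkn2b*, *Cdkn2c*, *Cdkn1b* and *Rb1*. RNA had been sequenced from GFRa1+/KIT- spermatogonia, the undifferentiated male germ cells that include the stem cells, of control (5 libraries) and cryptorchid (7 libraries) mouse testes at day 10 after surgery. The mice, labelled as wild type in genotype and described in the study's methods as adult GFRa1-EGFP reporter mice of 8 to 10 weeks, had the left testis fixed to the abdominal wall, and the right testis stayed in the scrotum as control. Both groups were therefore from operated animals carrying the reporter, cells were sorted by EGFP and by absence of KIT, and each library was made by Smart-seq2 from the RNA of about 200 cells. Control testes were digested at 32°C and cryptorchid testes at 37°C, so that step cannot be told apart from the condition. Which libraries came from the same mouse is not stated, and the *P*-values measure the spread between these libraries.

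In most cells, a D-type cyclin binds CDK4 or CDK6, and the active kinase phosphorylates RB1, which then releases the E2F transcription factors that switch on genes for DNA replication. The INK4 inhibitors (p16INK4a, p15INK4b and p18INK4c, from *Cdkn2a*, *Cdkn2b* and *Cdkn2c*) bind CDK4 and CDK6, whereas p27KIP1 (*Cdkn1b*) acts most of all on cyclin-CDK2 complexes. In the mouse testis, D-type cyclins accompany the divisions of spermatogonia, and cyclin D2 in particular is known from the step at which undifferentiated spermatogonia begin to differentiate.

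The 12 libraries held 3306771 to 24345368 reads on genes. They were split by replicate number into replicates 1 to 3 (3 control and 3 cryptorchid) and replicates 4 and above (2 control and 4 cryptorchid). Replicates 1 to 3 held 6800360 to 24345368 reads on genes and the others 3306771 to 5481947. Of the total reads that each library's scaled values implied, 74.5% to 94.0% were on genes in replicates 1 to 3 and 94.8% to 99.9% in the others. The number of mapped reads itself was not at hand. The labels do not name these as batches, so differences are also given within each. The sorted cells carried their own markers: the summed level of 8 genes of undifferentiated spermatogonia was 1064 to 1642 RPM (reads scaled to a common library total) in the controls and 1237 to 1946 RPM in cryptorchid libraries (exact two-sided rank sum test, *P*=0.639). As these are bulk samples, fewer cells of a type and less RNA per cell cannot be told apart.

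All 10 genes had values high enough to be tested, among 16932 genes in all. *Cdk6* was the 1 gene of the 10 that passed the 2-fold and unadjusted *P*=0.05 threshold, and it was lower in cryptorchid cells. Of all genes tested, 2.36% were called lower and 3.56% higher by this rule. The 3 D cyclins, *Cdk4*, *Rb1* and the 4 inhibitors did not pass it. The group mean was higher in cryptorchid cells for 5 of the 10 and lower for 5, and their median log2 fold change was 0.065, against 0.099 over all genes tested. At a Benjamini-Hochberg adjusted *P* of 0.05 in limma, 0 of the 10 and 2 of the 16932 genes (0.0118%) were called, and 1 of the 10 and 1606 genes (9.48%) had an unadjusted *P* under 0.05.

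**Figure D1:**
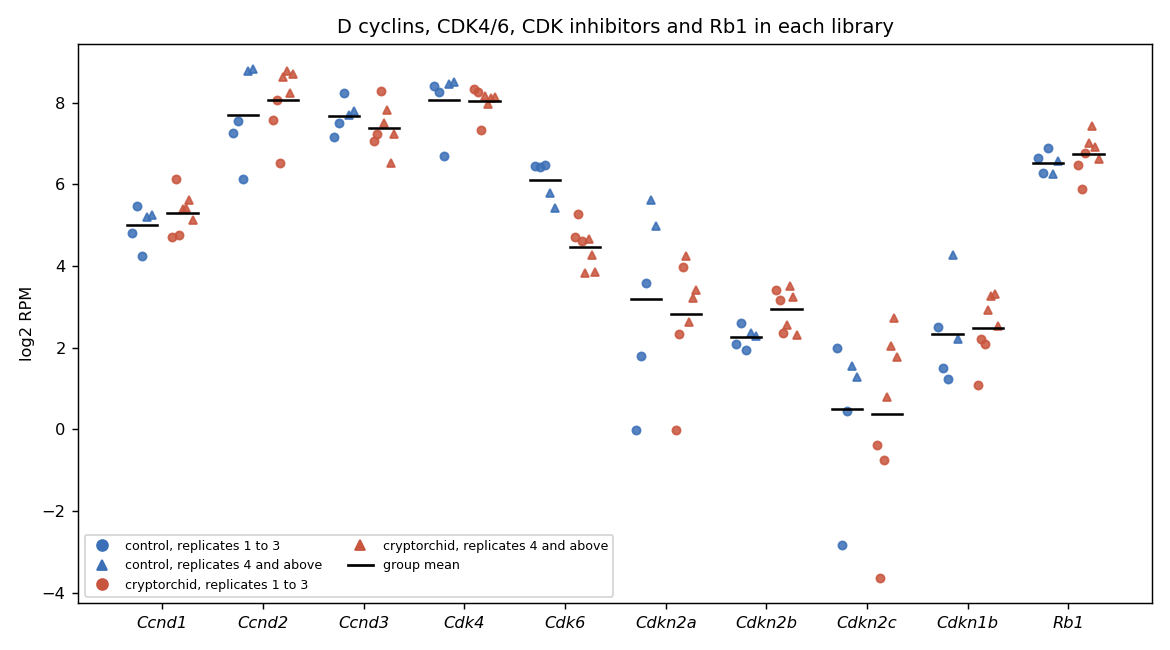
Log2 RPM (vertical axis) of the 10 genes in each library, with control (*n*=5) and cryptorchid (*n*=7) side by side; circles are replicates 1 to 3, triangles are replicates 4 and above, and bars are group means. A gene with 0 reads is drawn at the lowest value of its library (*Cdkn2c* at -3.63), and *Cdk6* is the gene in which no cryptorchid library reaches the lowest control library (5.26 against 5.43).

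The kinases were examined first. *Cdk6* lies on chromosome 5 (chr5:3341485-3531008, plus strand, GRCm38), and its exons overlap an antisense gene, *Gm17590*. In the control libraries 1 to 5, *Cdk6* was at 6.44, 6.42, 6.48, 5.77 and 5.43 log2 RPM. In the cryptorchid libraries 1 to 7 it was at 4.71, 5.26, 4.61, 3.83, 4.65, 4.26 and 3.84 log2 RPM. Every cryptorchid library was below every control library, which was so for 48 of the 16932 genes tested (0.283%). The values rest on 194 to 2457 reads in the controls and 66 to 585 reads in cryptorchid libraries, so counting error is small beside the spread between libraries.

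The mean of *Cdk6* was 6.11 ± 0.480 log2 RPM in control (SD, *n*=5) and 4.45 ± 0.513 in cryptorchid cells (SD, *n*=7), a difference of -1.65 (SE 0.317, 95% interval -2.32 to -0.99) or a 3.15-fold lower level. In limma the unadjusted *P* was 6.14e-05, the 10th smallest of 16932, and the Benjamini-Hochberg adjusted *P* was 0.104. The exact two-sided rank sum test gave *P*=0.00253, the smallest that 792 splits of 5 and 7 libraries allow. Within replicates 1 to 3 the difference was -1.58 and within replicates 4 and above -1.45, with no overlap of the groups in either (3.58% and 14.1% of all genes were lower in this way), and the exact test within both sets gave *P*=0.00667, the smallest possible there. With the set as a term of the model the difference was -1.52 and the adjusted *P* in limma 0.0291, in a fit that called 0.183% of all genes lower at an adjusted *P* of 0.05. With libraries weighted by their quality the difference was -1.64 and the adjusted *P* 0.00801, in a fit that called 1.32% of all genes lower in the same way. Leaving out each library in turn gave differences from -1.82 to -1.55, adjusted *P*-values in limma from 0.0568 to 0.289 and exact *P*-values from 0.00433 to 0.00606.

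Of the 9 lists of markers of other testis cells, 3 had an unadjusted exact *P* under 0.05 between the groups. Taken singly, 9.63% of all genes tested did. The 6 markers of differentiating spermatogonia summed to 169 to 373 RPM in the controls and 208 to 404 RPM in cryptorchid libraries (exact *P*=0.639). Its single genes went both ways. *Stra8* was at 5.48 to 6.47 log2 RPM in the controls and 6.11 to 7.70 in cryptorchid libraries, and *Sohlh1* at 5.76 to 7.66 and 5.52 to 7.62. The summed level of 6 spermatid markers was 475 to 2618 RPM in the controls and 13.5 to 1771 RPM in cryptorchid libraries (exact *P*=0.0480). Within each set of libraries these markers were lower in cryptorchid cells, at 475 to 1104 against 13.5 to 280 RPM in replicates 1 to 3 and at 2205 to 2618 against 113 to 1771 RPM in replicates 4 and above. The 7 spermatocyte markers summed to 271 to 379 RPM in the controls and 344 to 529 RPM in cryptorchid libraries (exact *P*=0.0480), of which 5 lay above the control range. Within replicates 1 to 3 they overlapped, at 271 to 379 against 344 to 434 RPM. In replicates 4 and above they were at 344 to 349 against 428 to 529 RPM, apart as were 14.1% of all genes in this direction. The single markers differed. *Sycp1*, at 6.71 to 7.24 log2 RPM in the controls and 6.55 to 7.71 in cryptorchid libraries, overlapped between the groups. So did *Sycp3*, at 4.77 to 7.32 and 5.49 to 7.57. *Spo11* was at 1.72 to 3.21 log2 RPM in the controls and 1.96 to 4.45 in cryptorchid libraries. *Dmc1* (4.46 to 5.83 and 3.31 to 6.55) and *Piwil1* (2.07 to 5.25 and -0.67 to 5.50) reached both below and above the control range. The 4 endothelial markers summed to 19.9 to 33.3 RPM in the controls and 24.4 to 74.3 RPM in cryptorchid libraries (exact *P*=0.00505), of which 6 lay above the control range. Of these genes, *Kdr* was at -0.35 to 3.73 log2 RPM in the controls and at 3.75 to 5.50 in cryptorchid libraries. *Pecam1*, *Cdh5* and *Tek* overlapped between the groups. The paper lists *Kdr* among developmental genes that lost the repressive mark H3K27me3 and rose in cryptorchid spermatogonia. Whether its reads came from endothelial cells or from spermatogonia was not tested. The Sertoli cell markers, 8 genes, summed to 43.9 to 226 RPM in the controls and 38.3 to 236 RPM in cryptorchid libraries. No marker in any of the lists was at 0 reads in every library, and the part of these cells in the results for *Cdk6* and for the other genes was not tested.

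*Cdk4* encodes the partner kinase that binds the same cyclins (chr10:127063534-127067920, plus strand), and its exons overlap those of *Tspan31* on the other strand. It was at 8.40, 8.27, 6.69, 8.46 and 8.50 log2 RPM in control libraries 1 to 5. In cryptorchid libraries 1 to 7 it was at 8.34, 8.27, 7.34, 8.16, 7.97, 8.10 and 8.15 log2 RPM. The groups overlapped, and replicate 3 was the lowest library of both. The difference was -0.017 (SE 0.318, 95% interval -0.69 to 0.65, adjusted *P*=0.991 in limma). It was 0.19 within replicates 1 to 3 and -0.38 within replicates 4 and above, where all 4 cryptorchid libraries were below both controls, as for 14.1% of all genes. Without control replicate 3 the difference was -0.36, and the exact *P* went from 0.149 to 0.0121.

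The proximal promoters of the kinases are shown because *Cdk6* differed between the groups and *Cdk4* did not pass the test. The windows are the 250 bases before the RefSeq start on GRCm38.p6, for *Cdk6* chr5:3343643-3343892 and for *Cdk4* chr10:127063285-127063534, both on the plus strand. The *Cdk6* window lies inside the GENCODE span of the gene given above, which begins at 3341485, so the annotations differ on its start. Capitals mark matches, on either strand, to a GC box (GGGCGG), E2F sites (TTTCGCGC, TTTGGCGC or TTTCCCGC), a CCAAT box, a cyclic AMP response element (TGACGTCA), a heat shock element core (GAANNTTC) or the core promoter box TATAAA.
Cdk6: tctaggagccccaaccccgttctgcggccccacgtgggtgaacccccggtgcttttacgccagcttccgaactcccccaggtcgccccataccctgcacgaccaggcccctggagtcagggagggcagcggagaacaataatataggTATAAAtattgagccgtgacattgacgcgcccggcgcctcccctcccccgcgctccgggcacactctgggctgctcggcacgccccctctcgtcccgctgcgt
Cdk4: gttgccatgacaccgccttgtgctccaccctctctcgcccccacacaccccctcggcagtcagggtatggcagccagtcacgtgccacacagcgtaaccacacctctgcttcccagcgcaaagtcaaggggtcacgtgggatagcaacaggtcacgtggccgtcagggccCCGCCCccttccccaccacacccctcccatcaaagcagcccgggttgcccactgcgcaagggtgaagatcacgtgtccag
The *Cdk6* window held 22 CpG dinucleotides at 66% GC, and the *Cdk4* window 13 at 64.4% GC, against medians of 6 and 52.4% over 32851 RefSeq windows. *Cdk6* had a TATAAA match at 103 to 98 bases before the start, and 12.4% of all windows have 1 or more. *Cdk4* had a GC box match on the other strand at 80 to 75 bases before the start, and 32.7% of all windows have 1 or more. Neither window held the letters of an E2F site, which 0.256%, 0.417% and 0.895% of windows hold in the order given.

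The balance of CDK6 to CDK4 transcripts within a library is free of the scaling between libraries, and was examined after the values were seen. *Cdk6* minus *Cdk4* was -1.96 ± 1.10 in control (SD, *n*=5, range -3.07 to -0.21) and -3.59 ± 0.616 in cryptorchid cells (SD, *n*=7, range -4.33 to -2.73) on the log2 RPM scale. The difference was -1.64, with an exact two-sided *P* of 0.0101. It largely restates the *Cdk6* difference (-1.65), as *Cdk4* differed by -0.017, so its *P*-values are no separate support. The balance differed by -1.78 within replicates 1 to 3 and by -1.07 within replicates 4 and above. With each library left out it differed by -1.92 to -1.20 (exact *P* up to 0.0242). Per exon length, *Cdk6* made up 2.08% to 13.4% of the transcripts of both kinases in control and 0.880% to 2.62% in cryptorchid libraries, so CDK4 was the more abundant transcript in every library. The highest share, 13.4%, was that of control replicate 3, in which *Cdk4* was low.

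**Figure D2:**
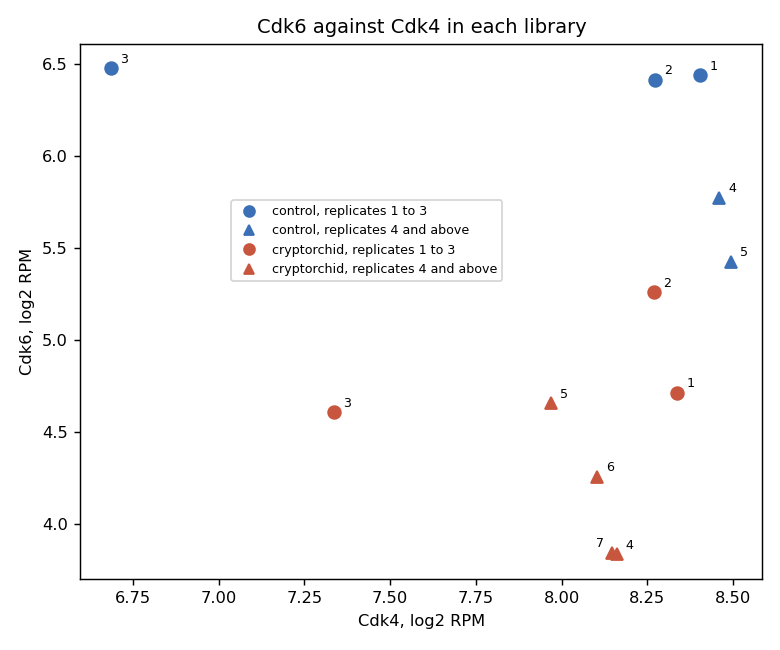
*Cdk6* (vertical axis) against *Cdk4* (horizontal axis) in log2 RPM, 1 point per library with its replicate number; blue is control and red cryptorchid, circles are replicates 1 to 3 and triangles replicates 4 and above. Cryptorchid libraries lie at or below 5.26 log2 RPM of *Cdk6* at *Cdk4* values that overlap those of control, and replicate 3 of both groups stands to the left.

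The D cyclins are the activating partners of these kinases. *Ccnd2*, cyclin D2 (chr6:127125162-127152193, minus strand), was at 7.25, 7.55, 6.14, 8.77 and 8.81 log2 RPM in control libraries 1 to 5. In cryptorchid libraries 1 to 7 it was at 7.57, 8.07, 6.53, 8.62, 8.77, 8.23 and 8.70 log2 RPM. The groups overlapped over nearly their whole range, and the split between the libraries was that of the replicate numbers: replicates 1 to 3 were at 6.14 to 8.07 and replicates 4 and above at 8.23 to 8.81 log2 RPM, whatever the condition. The difference between conditions was 0.37 (SE 0.462, 95% interval -0.61 to 1.34, adjusted *P*=0.841 in limma, exact *P*=0.876). Within the sets it was 0.41 and -0.21, in the order given, and in replicates 4 and above all 4 cryptorchid libraries were below both controls, as for 14.1% of all genes, by a narrow margin (8.773 against 8.774 log2 RPM). The exons overlap the antisense gene *Gm43126*.

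*Ccnd1*, cyclin D1 (chr7:144929931-144939925, minus strand), was at 4.80, 5.46, 4.26, 5.19 and 5.25 log2 RPM in control libraries. In cryptorchid libraries it was at 4.71, 6.13, 4.76, 5.39, 5.43, 5.61 and 5.13 log2 RPM, with *LTO1* exons on the other strand. Only cryptorchid replicates 2 and 6 were above the highest control, and the difference was 0.32 (SE 0.313, 95% interval -0.34 to 0.97, adjusted *P*=0.786 in limma). It was 0.36 in replicates 1 to 3 and 0.17 in the others.

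*Ccnd3*, cyclin D3 (chr17:47505051-47599691, plus strand, with *Bysl* exons on the other strand), was at 7.16, 7.50, 8.24, 7.70 and 7.80 log2 RPM in control libraries. In cryptorchid libraries it was at 7.06, 7.22, 8.28, 7.51, 7.82, 6.52 and 7.24 log2 RPM. The highest library of both groups was replicate 3, in which *Ccnd2* and *Cdk4* were lowest. The difference was -0.30 (SE 0.297, 95% interval -0.93 to 0.32, adjusted *P*=0.784 in limma). It was -0.11 in replicates 1 to 3 and -0.48 in the others. The difference *Ccnd3* minus *Ccnd2* averaged -0.026 in control and -0.69 in cryptorchid cells (exact *P*=0.268).

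The INK4 inhibitors were read at lower levels. *Cdkn2b* (p15INK4b, chr4:89306299-89311039, minus strand) was at 2.08, 2.60, 1.93, 2.35 and 2.28 log2 RPM in control libraries, from 22 to 175 reads. In cryptorchid libraries it was at 3.42, 3.16, 2.36, 2.54, 3.51, 3.24 and 2.30 log2 RPM, from 23 to 239 reads. Cryptorchid replicates 1, 2, 5 and 6 were above every control, whereas replicates 3, 4 and 7 lay in the control range. The means were 2.25 ± 0.258 (SD, *n*=5) and 2.93 ± 0.518 (SD, *n*=7), a 1.61-fold difference (0.68 on the log2 scale, SE 0.463, 95% interval -0.29 to 1.66).

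In limma the unadjusted *P* of *Cdkn2b* was 0.157 and the adjusted *P* 0.675. The exact rank sum test gave *P*=0.0303 and, within the sets, *P*=0.0533. *Cdk6* and *Cdkn2b* were the 2 of the 10 genes with an exact *P* under 0.05, against 1630 of all genes tested (9.63%). The difference was 0.77 in replicates 1 to 3 and 0.58 in the others. With a library left out, the exact *P* of *Cdkn2b* was between 0.0121 and 0.0727, and was above 0.05 without control replicate 1, 3 or 5 (0.0727 each) and without cryptorchid replicate 1, 2, 5 or 6 (0.0519 each).

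The *Cdkn2b* promoter is shown as that of the inhibitor with an exact *P* under 0.05. Its 250 bases before the start (chr4:89311033-89311282, minus strand, GRCm38.p6) held 12 CpG dinucleotides at 53.6% GC, with the same motifs in capitals.
Cdkn2b: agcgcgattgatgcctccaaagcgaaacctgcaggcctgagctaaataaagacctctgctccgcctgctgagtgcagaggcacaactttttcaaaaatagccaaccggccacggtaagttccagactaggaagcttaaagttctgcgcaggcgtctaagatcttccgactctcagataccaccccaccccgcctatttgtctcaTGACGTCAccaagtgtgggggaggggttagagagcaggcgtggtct
The match is a cyclic AMP response element (TGACGTCA) at 46 to 39 bases before the start, letters that 1.55% of all windows hold.

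*Cdkn2a* (chr4:89274471-89294653, minus strand) encodes p16INK4a and, from another first exon, the p53 activator ARF, and a value per gene cannot separate them. It was at -0.021, 1.78, 3.59, 5.62 and 4.99 log2 RPM in control libraries 1 to 5. In cryptorchid libraries 1 to 7 it was at -0.019, 2.33, 3.97, 4.25, 2.62, 3.21 and 3.42 log2 RPM. It had the widest range of the 10 genes in control, from 24 reads in replicate 1 to 270 in replicate 4. The difference was -0.37 (SE 0.897, 95% interval -2.25 to 1.52, adjusted *P*=0.924 in limma).

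Within replicates 1 to 3, *Cdkn2a* differed by 0.31 between the groups. Within replicates 4 and above it was -1.93, with both controls above all 4 cryptorchid libraries (14.1% of all genes) and an unadjusted *P* of 0.00484 in limma. In those libraries alone, 2 of the 10 genes, *Cdk6* and *Cdkn2a*, passed the 2-fold and unadjusted *P* threshold as lower, as did 4.16% of all genes tested. Without control replicate 4 or 5, or cryptorchid replicate 1, the *Cdkn2a* difference over all libraries turned to 0.24, 0.082 and 0.11.

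*Cdkn2c* (p18INK4c, chr4:109660876-109667189, minus strand) was the lowest of the inhibitors. It had 97, 4, 14, 16 and 11 reads in the control and 17, 0, 5, 8, 14, 30 and 16 reads in the cryptorchid libraries. Both replicates numbered 2 were near or at 0, and a count of 0 allows up to 3 reads. The difference was -0.12 (SE 1.10, 95% interval -2.44 to 2.20), an interval that takes in a 4-fold change either way. It was -1.46 in replicates 1 to 3 and 0.42 in the others. *Cdkn1b* (p27KIP1, chr6:134920401-134925513, plus strand), the CIP/KIP member, had 21 to 137 reads in the controls and 27 to 52 in cryptorchid libraries, or 1.23 to 4.27 and 1.08 to 3.30 log2 RPM. The ranges overlapped, with a difference of 0.15 (SE 0.615, 95% interval -1.15 to 1.44, adjusted *P*=0.957 in limma). It was 0.059 in replicates 1 to 3 and -0.24 in the others.

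*Rb1*, the pocket protein gene that the kinases act on (chr14:73183673-73325822, minus strand, with *Rcbtb2* exons on the other strand), had the narrowest control range of the 10. It was at 6.63, 6.27, 6.88, 6.24 and 6.58 log2 RPM in control libraries. In cryptorchid libraries it was at 6.48, 5.89, 6.77, 7.01, 7.44, 6.91 and 6.63 log2 RPM. The groups overlapped, and the difference was 0.21 (SE 0.266, 95% interval -0.35 to 0.77, adjusted *P*=0.842 in limma). It was -0.22 within replicates 1 to 3 and 0.58 within replicates 4 and above, where all 4 cryptorchid libraries were above both controls, as for 14.1% of all genes (unadjusted *P*=0.0372 in limma).

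**Figure D3:**
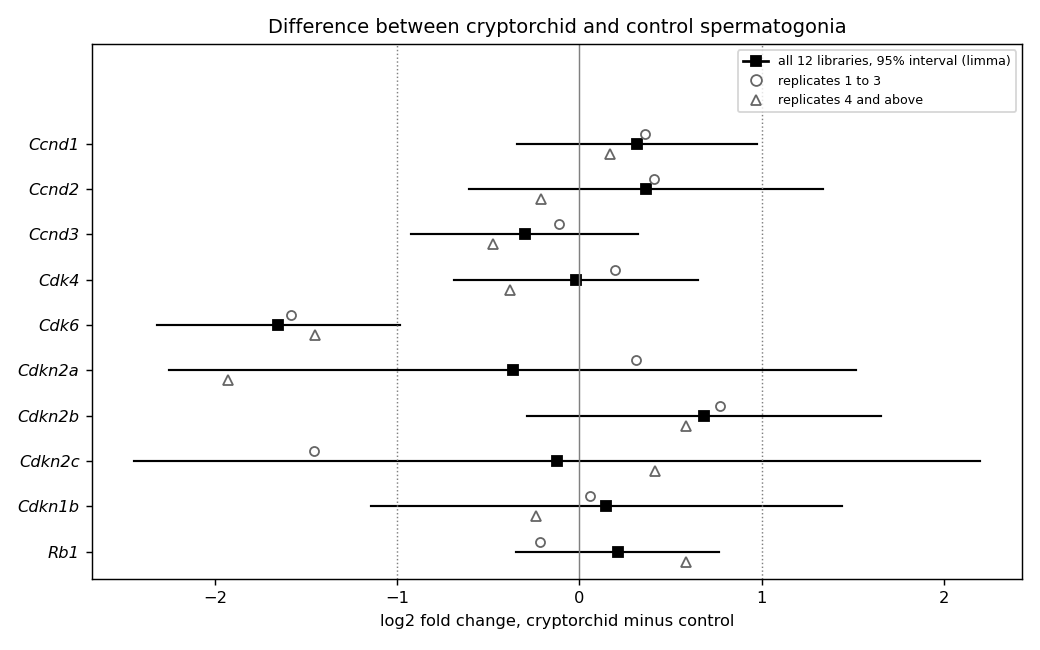
Log2 fold change, cryptorchid minus control (horizontal axis), of the 10 genes; squares with lines are all 12 libraries with 95% intervals from limma, circles are replicates 1 to 3 alone and triangles replicates 4 and above alone, and dotted lines mark 2-fold. The interval of *Cdk6*, -2.32 to -0.99, is the only one that leaves out 0, and 6 genes (*Ccnd2*, *Cdk4*, *Cdkn2a*, *Cdkn2c*, *Cdkn1b* and *Rb1*) have circles and triangles on opposite sides of 0.

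Levels were compared between genes per exon length, in log2 RPM per kilobase of exon. In control cells the order of means was *Cdk4* (7.03), *Ccnd3* (6.39), *Ccnd2* (4.96), *Rb1* (4.30), *Ccnd1* (3.09), *Cdkn2a* (2.96), *Cdk6* (2.58), *Cdkn2b* (1.78), *Cdkn1b* (0.15) and *Cdkn2c* (-0.94). Neighbours in this order overlapped between libraries except *Rb1* and *Ccnd1*. In cryptorchid cells the order was that of control but for *Cdk6* (0.93), which came after *Cdkn2b* (2.46), and these neighbours did not overlap. Per length, *Cdk6* was above *Cdkn2b* in 5 of 5 control libraries (by 0.089 to 1.49) and below it in 7 of 7 cryptorchid libraries (by -2.03 to -0.80 on the log2 scale). This crossing depends on the exon lengths used, 11525 bases for *Cdk6* and 1390 for *Cdkn2b*. In log2 RPM, without length, *Cdk6* was at 3.83 or above in every library and *Cdkn2b* at 3.51 or below.

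The rest of the pathway was read from 6 lists of 58 genes. In all, 0 of the 58 were called higher and 1 lower at 2-fold and unadjusted *P*=0.05, and 4 had an unadjusted *P* under 0.05. Of all 16932 genes tested, 3.56% were called higher, 2.36% lower, and 9.48% had an unadjusted *P* under 0.05 in limma. With a library left out, 0 to 2 of the 58 were called higher and 1 to 4 lower. Without control replicate 5, *Ccne1* and *Cdkn2d* were called higher, and without cryptorchid replicate 3 *Ccne2* was. Without control replicate 3, 4 cycling genes were called lower. Over all genes tested, leaving out a library gave 501 to 750 higher and 280 to 572 lower, the 572 being without control replicate 3. In replicates 4 and above alone, 1 of the 58 was called higher and 5 lower, against 635 and 705 of all genes. In replicates 1 to 3 alone limma called 0 of the 58, against 287 higher and 345 lower of all genes. There, 0 of the 58 and 633 of all genes had an unadjusted *P* under 0.05. The 1 gene of the 58 called lower with all 12 libraries was *Aurkb*, the kinase of the chromosomal passenger complex in mitosis. It was at 5.05 to 6.35 log2 RPM in the controls and 3.72 to 5.61 in cryptorchid libraries, which overlapped. The difference was -1.19 (SE 0.345, adjusted *P*=0.248 in limma, exact *P*=0.0101), and it was -0.99 in replicates 1 to 3 and -1.28 in the others.

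Among the 10 genes of cycling cells, to which *Aurkb* belongs, the median log2 fold change was -0.28. It was -0.25 in replicates 1 to 3 and -0.41 in the others, and -0.59 without control replicate 3, when *Aurka*, *Cdc20* and *Plk1*, which act in mitosis, were called lower with *Aurkb*. The same 4 genes were called lower in replicates 4 and above alone. *Plk1*, a mitotic kinase, differed by -0.82 (unadjusted *P*=0.0358 in limma), and *Top2a*, the topoisomerase of mitotic chromosomes, had the highest value at 0.48. The 14 E2F targets of DNA replication had a median of 0.15, and the lowest value was -0.50 for *Cdt1*, a licensing factor of replication origins. The 12 other pocket protein and E2F genes had a median of -0.014, from *E2f8* at -0.33 to *Tfdp1*, the E2F partner DP1, at 0.24.

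The 6 genes of cyclin E, cyclin A and CDK2, which act after the D cyclins, had a median of 0.046, from *Ccna2* at -0.37 to *Ccne2*, cyclin E2, at 0.83 (unadjusted *P*=0.0268 in limma, exact *P*=0.0303). The 3 other CDK inhibitors had a median of 0.48, from *Cdkn1a*, the p53 target p21, at 0.35 to *Cdkn2d*, p19INK4d, at 1.04 (unadjusted *P*=0.0655 in limma, exact *P*=0.106). The median was 1.47 in replicates 1 to 3 and 0.30 in the others, and 0.22 without control replicate 3. *Cdkn1a* differed in opposite directions, by 1.69 in replicates 1 to 3 and by -1.64 in replicates 4 and above, where it was called lower. *Cdkn2d* was at 0.56 to 3.80 log2 RPM in the controls and 3.21 to 4.78 in cryptorchid libraries. Its lowest value was that of control replicate 3, from 15 reads, and the other controls were at 2.93 to 3.80. *Cdkn2d* differed by 1.47 in replicates 1 to 3 and by 0.30 in the others. The 13 genes of activation and turnover of these proteins had a median of 0.10, from *Cdc37*, a chaperone of kinases, at -0.46 to *Ccnh*, a subunit of the CDK-activating kinase, at 0.45. Against these, the median over all genes tested was 0.099.

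**Figure D4:**
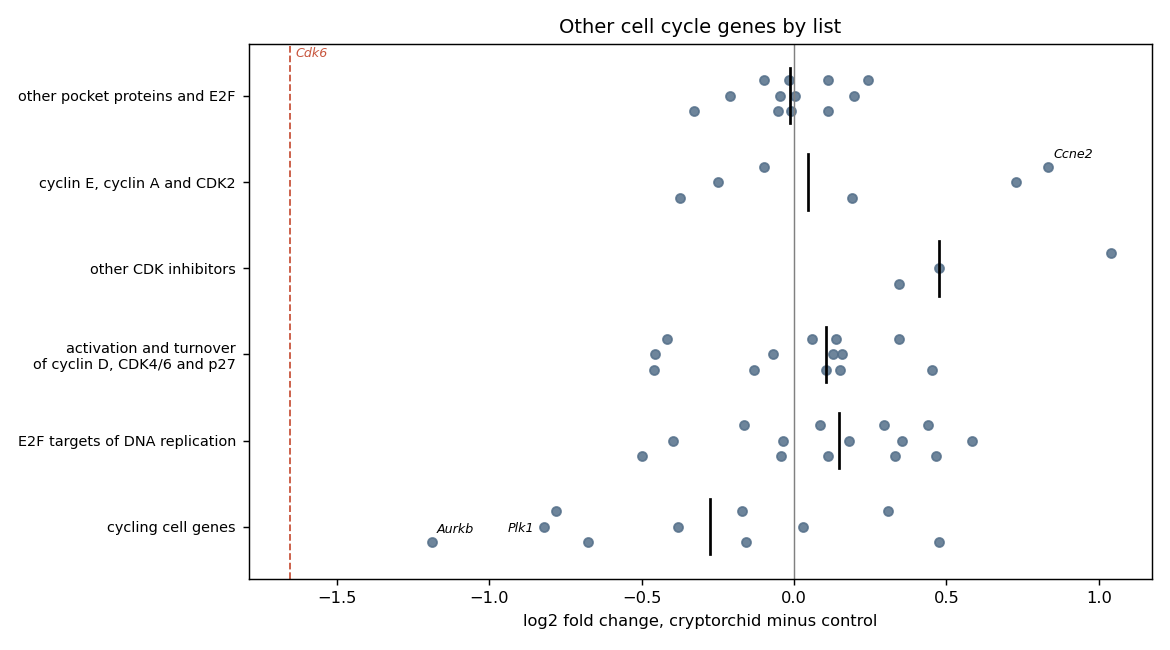
Log2 fold change, cryptorchid minus control (horizontal axis), of the 58 genes in 6 pathway lists; each point is 1 gene, black bars are the list medians, and the dashed line is *Cdk6* at -1.65. All 58 points lie to the right of *Cdk6*, the nearest being *Aurkb* at -1.19, and the 3 genes named beside their points had an unadjusted *P* under 0.05.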

How the data were processed

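Deposited values were log2 RPM for 21859 genes in 12 libraries. To make them, the authors trimmed reads (Trim Galore 0.6.6), mapped them to mm10 (HISAT2 2.1.0) and used SeqMonk to count reads over protein-coding genes. The authors tested their counts with edgeR; the deposited log2 values are not counts, so limma 3.58.1 in R 4.3.3 (trend, two-sided, with Benjamini-Hochberg adjustment) was used here on 16932 genes, those whose mean RPM had a log2 above -1. Reads behind each value were recovered from the steps between low values, taking each library's lowest value to stand for 0.9 reads; of the values under 1000 reads, 100% were whole within 0.05. They come from PCR without molecular identifiers, so recovered reads and limits on 0 counts hold for counting error alone. Depth was 4511730 to 24345368 reads on genes in control and 3306771 to 20027902 in cryptorchid libraries. All 31 pairs of replicates differed beyond sampling noise.

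Libraries were grouped by their labels. Single genes were compared with an exact two-sided Wilcoxon rank sum test over libraries, also within replicates 1 to 3 and replicates 4 and above, run with scipy 1.17.1, pandas 2.3.3 and numpy 2.4.6 under Python 3.11.15, and matplotlib 3.10.9 drew the plots. The scripts were tested on simulated data. The 10 genes, the pathway lists and the marker lists were chosen with earlier results of these data known. Named are all 10 genes, every gene of a pathway list past the threshold and otherwise the highest and lowest of each list, and the genes nearest to the D cyclins by Pearson's r; *Plk1* and genes called only in some settings were chosen after their values were seen, and 1 gene that the rule names is not reported here. Smart-seq2 does not keep strand, so reads of a gene and of overlapping genes on the other strand cannot be told apart. Gene positions are those of GENCODE vM21 and promoters those of RefSeq, which matched 7 of the 10 genes.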

Additional observations from a re-analysis of the deposited data

Results flagged for a closer look

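Of 22 groups of libraries examined for the 10 genes and the CDK6 to CDK4 balance, 2 held a library far from the others, and chance alone marks about 1 in 20 groups. Both were *Cdk4* in replicate 3. In control replicate 3 *Cdk4* was at 6.69 log2 RPM, against 8.27 to 8.50 in the other control libraries. In cryptorchid replicate 3 it was at 7.34 log2 RPM, against 7.97 for the next lowest library. The gap took 0.876 of the range in control and 0.632 in cryptorchid cells. *Ccnd2* was also lowest in replicate 3 of both groups, at 6.14 and 6.53 log2 RPM.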

How the results depend on the processing

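The 10 genes were refitted under 25 other settings, and 220 of the member fold changes kept their direction while 29 turned, in 6 genes (a filter above 2 left out *Cdkn2c*). *Cdk6* kept its direction in all of them, at -1.64 with array weights, -1.52 with the set term and -1.49 under the replicate block. Adjusted *P*-values in limma were 0.00535 to 0.119 among the settings fitted on all 12 libraries. The lowest was that of the replicate block. In that fit cryptorchid replicates 6 and 7, which have no control of their number, add nothing to the difference. Turned were *Cdkn1b* with quantile normalization (-0.062), array weights (-0.094), voom (-0.0056), the replicate block (-0.024), the set term (-0.080) and replicates 4 and above alone (-0.24); *Cdkn2c* with array weights (0.13) and replicates 4 and above alone (0.42); *Ccnd2* in replicates 4 and above (-0.21); and *Cdk4* (0.19), *Cdkn2a* (0.31) and *Rb1* (-0.22) in replicates 1 to 3. With each library left out, log2 fold changes were 0.13 to 0.43 for *Ccnd1*, -0.027 to 0.64 for *Ccnd2*, -0.45 to -0.16 for *Ccnd3*, -0.36 to 0.10 for *Cdk4*, -1.82 to -1.55 for *Cdk6*, -0.13 to 0.63 for *Cdkn1b*, -1.17 to 0.24 for *Cdkn2a*, 0.59 to 0.79 for *Cdkn2b*, -0.95 to 0.54 for *Cdkn2c* and 0.09 to 0.35 for *Rb1*. Members called lower at 2-fold were 2 with replicates 4 and above alone, and members called lower after adjustment were 1 with array weights, with the replicate block and with the set term. The exact test called 2 members, 1 within sets, and limma 1; with a library left out it called 1 to 2. Of the 58 pathway genes, array weights called 1 higher and 3 lower, replicates 4 and above alone 1 higher and 5 lower, and replicates 1 to 3 alone 0, against 0 and 1; leaving out a library called 0 to 2 higher and 1 to 4 lower. The median of the 3 other CDK inhibitors was 1.47 in replicates 1 to 3. List medians with a library left out were -0.59 to -0.17 for cycling cells, 0.22 to 0.92 for the inhibitors, -0.16 to 0.19 for cyclin E, cyclin A and CDK2, -0.077 to 0.33 for E2F targets, -0.019 to 0.18 for activation and turnover and -0.093 to 0.11 for the other pocket proteins and E2F. Except for scaling, pseudocount, filter, block and set term, these settings for the lists were chosen after seeing the data. Over all genes, 603 were called higher and 399 lower at 2-fold: 501 to 750 and 280 to 572 with a library left out, 532 and 501 with median centring, 457 and 542 with quantile normalization. Called higher were 385 with a filter above 2 and 287 in replicates 1 to 3; called lower were 703 with array weights, 900 with the block, 635 with the set term and 705 in replicates 4 and above. After adjustment, 1 was called higher and 1 lower: 0 to 3 and 0 to 6 with a library left out. Higher were 3 with log2(RPM + 1), 252 with array weights, 382 with the block and 15 with the set term; lower were 3 with median centring and with quantile normalization, 2 with log2(RPM + 1), with no filter and with voom, 224 with array weights, 567 with the block and 31 with the set term; limma called 0 in each set alone, with 633 and 2934 genes at an unadjusted *P* under 0.05. The CDK6 to CDK4 balance differed by -1.78 and -1.07 in the sets. The cause of these changes was not tested. The replicate block pairs libraries by number, which the labels do not say. Same-number deviations correlated at 0.0488 to 0.411 over 5 pairs, and other-number deviations within a set at -0.214 to 0.274 over 12 pairs. In all, 4 of 5 controls correlated best with their own number, control replicate 4 by a narrow margin over cryptorchid replicate 7. Control replicate 5 was at 0.0488 with its own number and at 0.247 to 0.274 with the other cryptorchid libraries of its set. The correlations thus do not show pairing by number in replicates 4 and above. Under the block, *Cdk6* differed by -1.49 (adjusted *P*=0.00535, in a fit that called 3.35% of genes lower). The planned edgeR test was not run, as the deposited values are not counts. Depth limits *Cdkn2c* and *Cdkn1b*, with 0 to 97 and 21 to 137 reads a library.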

Other observations

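Over the 12 libraries, the genes nearest to each D cyclin among 11413 genes were, by Pearson's r of log2 RPM, *Dmwd* (0.93) and *Gm20521* (0.92) for *Ccnd1*, *Cbx1* (0.97) and *Gsdme* (0.97) for *Ccnd2*, and *Epb41l1* (0.93) and *Inf2* (0.93) for *Ccnd3*. These are the extremes of many relations over libraries that share conditions, depth and replicate sets, and are given as a description. Among the 10 genes, the nearest pair was *Ccnd2* and *Cdk4* (r of 0.73, Spearman's rho of 0.44), both low in replicate 3. *Cdkn2c* was nearest to *Rb1* (0.65), *Cdkn1b* to *Ccnd2* (0.65), and *Cdk6* to *Ccnd3* (0.28).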
